A study of Mus musculus with 24 samples.

Results

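The collagen genes were taken as all protein-coding mouse genes whose symbol is Col, a number, the letter a and a number, and 44 of the 49172 genes in the count table met that rule, with 224 transcripts. They were followed in Ocy454 cells, a mouse osteocytic line, in 24 RNA-seq libraries. The study treated the cells with lysophosphatidic acid (LPA), a lipid that acts through G protein-coupled receptors, with 1,25-dihydroxyvitamin D (1,25D), a hormone whose nuclear receptor is the product of Vdr, with both, or with vehicle, and asked how the agents promote synthesis of the bone hormone FGF23. The 8 groups of 3 libraries were both agents, each single agent and vehicle, at 2 h and at 8 h. No dose, passage or clone is given in the sources used here, and all groups share the same cell line.

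The single treatments carry the letters L and D, and the labels contradict each other on them: libraries titled with D have tables coded L, and libraries titled with L have tables coded D. Groups are therefore called by the table code, as code L and code D, and both agents and vehicle are the same under either reading. Cyp24a1, the 24-hydroxylase that is a textbook target of the vitamin D receptor, had 87 summed estimated counts with both agents at 8 h, 1 in the code L libraries, 102 in the code D libraries and 1 with vehicle. Vdr itself stood at 223 ± 16.0 CPM (read counts scaled to library size, SD, n = 3) with both agents at 8 h, 72.3 ± 1.91 CPM in code L, 254 ± 6.88 CPM in code D and 125 ± 11.8 CPM with vehicle. At 8 h both genes were thus high in the libraries with table code D, whose titles carry L, as they were with both agents. At 2 h Cyp24a1 had 6, 1, 10 and 1 summed counts in the same order of groups. Vdr then stood at 195.5 ± 10.6, 179.7 ± 9.08, 239.1 ± 24.2 and 232.4 ± 3.58 CPM, so it was not high with both agents at 2 h.

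Collagens are trimers of helical chains that build most of the extracellular matrix. Fibrillar collagens, above all type I, form the tensile scaffold of bone, type III and type V chains co-assemble with type I and type V limits fibril diameter, and fibril-associated (FACIT) collagens such as types XII and XVI sit on or between fibrils. Network collagens of types IV and VIII form sheets, and type VI forms beaded microfilaments around cells. Osteocytes descend from osteoblasts, whose main product is type I collagen.

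Total estimated counts per library ran from 32.8 to 33.67 M, with a median of 33.5 M. Whether replicates were separate cultures is not stated in the labels, so the p-values reflect only the spread between these libraries, which may be technical. Among markers that define osteocytes, Dmp1 was low at 0.757 to 1.79 TPM (transcript abundance per length and library), Phex reached at most 0.456 TPM, Sost at most 0.114 TPM and Mepe at most 0.0218 TPM, while Pdpn, a marker of the embedding osteocyte, had 38.2 to 72.0 TPM. A list of 7 osteoblast markers, all found, summed at 8 h to 3091 to 3478 TPM with both agents, 678 to 724 TPM in code L, 1548 to 1722 TPM in code D and 259 to 307 TPM with vehicle. Most of that was Spp1, osteopontin, at up to 3459.5 TPM in a library. Among the other members, Runx2 reached at most 41.4 TPM, Bglap2 14.4, Bglap 7.85, Sp7 3.07, Alpl 1.31 and Ibsp 0.108 TPM. Runx2 at 8 h averaged 33.1 ± 8.98 CPM with both agents, 53.0 ± 3.08 in code L, 64.1 ± 8.98 in code D and 50.6 ± 11.5 with vehicle. The part of these markers in the collagen values was not tested.

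A pair of libraries stood apart from their groups by low values of collagen genes, and other libraries at 8 h lay high. In replicate 2 of 8 h both agents, 25 of the 30 tested collagens were at their lowest of the group, with a median of -0.65 on the log2 scale against the other 2 replicates. In replicate 2 of 8 h vehicle, 25 were lowest of the group and 19 were lowest of all 24 libraries, with a median of -1.01. The same vehicle library had the highest share of mitochondrially encoded counts, 16.92%, where the lowest of the 24 libraries had 9.01%. Genes with the longest 10% of transcripts had a median of -0.21 in log2 CPM against the mean of the other 2 replicates in both of these libraries, and those with the shortest 10% had 0.17 in the both-agents library and 0.10 in the vehicle library. In replicate 3 of 8 h vehicle, 23 of the 30 tested collagens were highest of the group, with a median of 0.54. The longest had 0.10 there and the shortest -0.07. The highest values of the group lay in both-agents replicate 3 for 25 collagens and in code D replicate 2 for 26. In replicate 3 of 8 h both agents, where the collagen median was 0.44, the longest had 0.16 and the shortest -0.15. In code D at 8 h the longest had -0.19 in replicate 1 and 0.13 in replicate 2, beside collagen medians of -0.34 and 0.39, and 17 of the 30 tested collagens are among the longest 10%. The part of either value in the collagen levels was not tested, and calls against vehicle at 8 h that were lost without the low pair are named below.

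Type I collagen dominated the family. Col1a1 and Col1a2, the chains of type I collagen, averaged 709 and 403 TPM over the 24 libraries, ranks 172 and 308 among all genes. The type VI chains Col6a1, Col6a2 and Col6a3 followed with 196, 95.5 and 77.1 TPM. Col3a1, the type III chain, averaged 49.1 TPM, Col5a2 47.5 TPM, Col16a1 34.3 TPM, Col12a1 31.1 TPM and Col5a1 25.0 TPM. The network chains Col8a1, Col4a1, Col8a2 and Col4a2 lay between 12.8 and 18.4 TPM. In every library the 8 highest genes made up 88.5 to 92.3% of collagen TPM. In all, 21 of the 44 genes averaged at least 1 TPM and 15 at least 10 TPM.

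**Figure D1:**
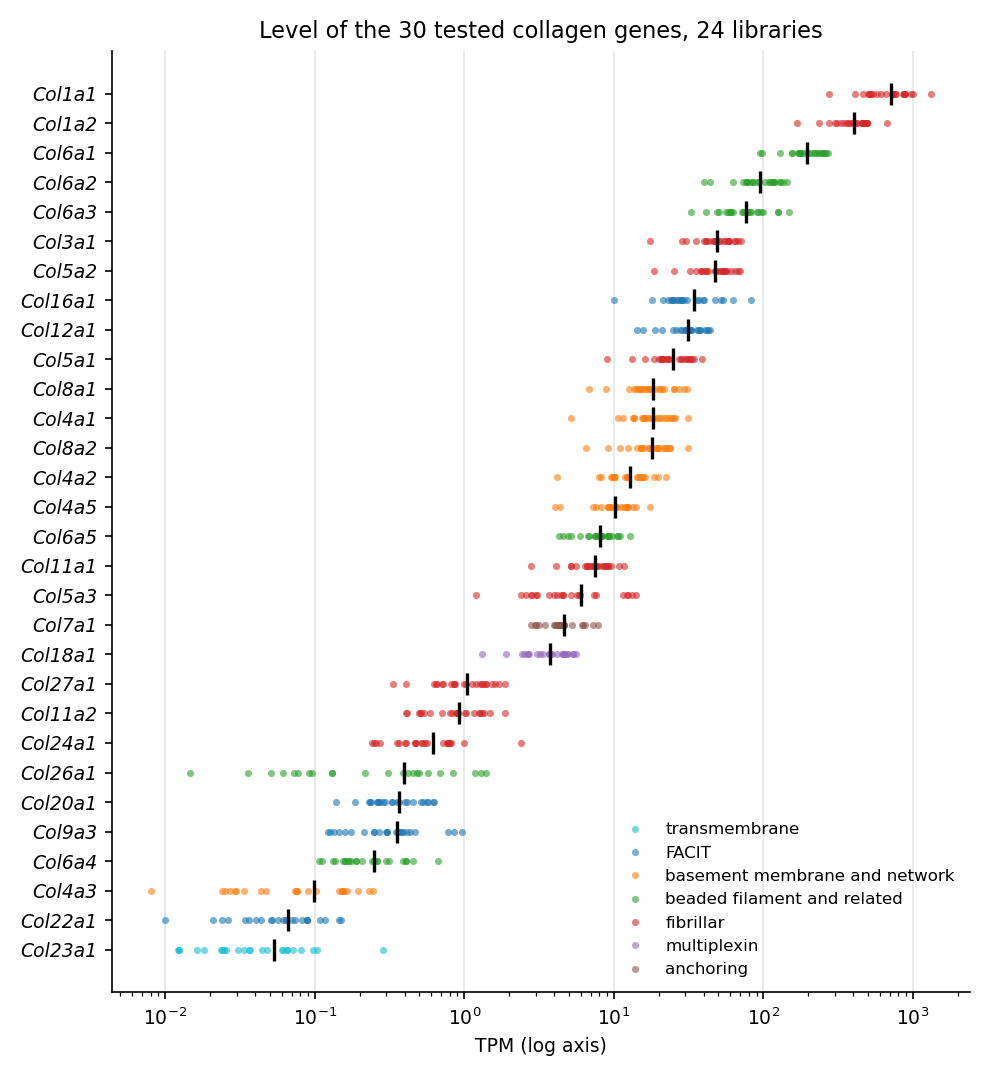
TPM (log axis) of the 30 tested collagen genes, ordered by mean; each point is 1 of 24 libraries, zeros are left out, the black bar is the mean of all 24 and colours mark the structural class. Col1a1 at a mean of 709 TPM and Col23a1 at 0.0537 TPM bound the range.

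A filter on low counts left 30 of the 44 collagens for testing. By class these were 10 of 11 fibrillar, 6 of 9 basement membrane and network, 6 of 8 beaded filament and related, 5 of 9 FACIT, 1 of 1 anchoring (Col7a1), 1 of 2 multiplexin (Col18a1) and 1 of 4 transmembrane genes (Col23a1). The 14 left out averaged 0.208 to 5.33 estimated counts and 0.00394 to 0.0665 TPM per library. They were Col2a1, the cartilage fibril chain, Col10a1 of hypertrophic cartilage, the cartilage FACIT chains Col9a1 and Col9a2, and Col4a4, Col4a6, Col6a6, Col13a1, Col14a1, Col15a1, Col17a1, Col19a1, Col25a1 and Col28a1. A list of 8 chondrocyte markers, all found, summed to 0.869 to 1.45 TPM with both agents at 8 h, 2.43 to 3.28 TPM in code L, 1.77 to 3.06 TPM in code D and 1.02 to 2.00 TPM with vehicle, and at 2 h to 4.22 to 5.80, 6 to 7.71, 2.32 to 2.72 and 2.12 to 2.92 TPM in the same order. Sox9 led it at 0.499 to 6.93 TPM, while the cartilage proteoglycan gene Acan reached at most 0.0685 TPM and Snorc stood at 0, and the part of these markers in the collagen values was not tested.

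Summed collagen TPM at 8 h was 1763, 1018 and 2110 with both agents, 2159, 2209 and 2316 in code L, 1907, 2905 and 2162 in code D, and 1701, 734 and 2156 with vehicle. Every code L library lay above every vehicle library, while the both-agents and code D libraries overlapped the vehicle ones. At 2 h the sums were 2109, 1820 and 1513 with both agents, 1971, 1806 and 1560 in code L, 1435, 1169 and 1309 in code D, and 1996, 1500 and 1385 with vehicle, and all treated groups overlapped vehicle. In bulk RNA, fewer cells of a type and less RNA per cell cannot be told apart.

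**Figure D2:**
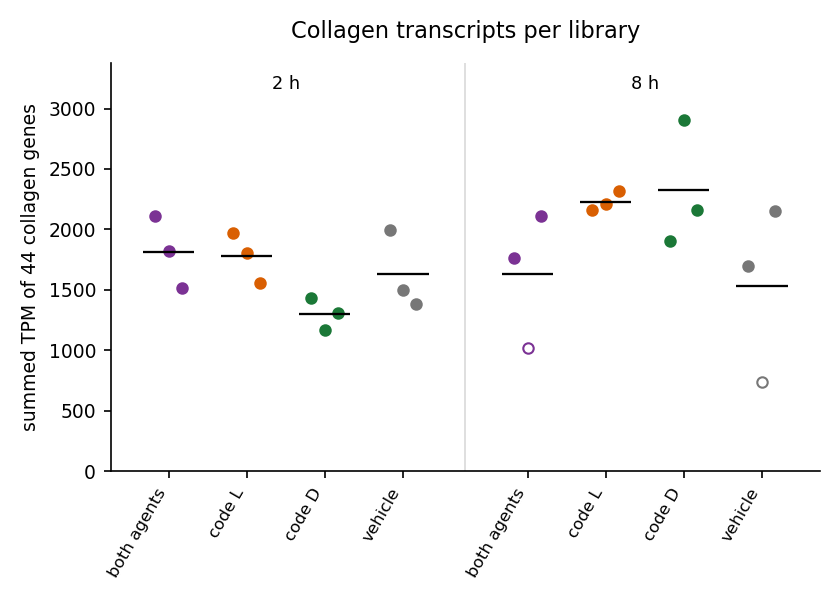
Summed TPM of the 44 collagen genes (linear axis from 0) in each library by group and time; points are libraries, bars are means of 3, and open points are replicate 2 of 8 h both agents and of 8 h vehicle. The open points, at 1018 and 734 TPM, are the lowest of the 24.

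The make-up of the family was also compared. Type I chains took 66.5, 63.8 and 67.7% of collagen TPM with both agents at 8 h, 61.5, 61.8 and 59.1% in code L, 68.4, 68.4 and 68.8% in code D, and 64.2, 60.4 and 63.2% with vehicle. The 3 code D libraries were above all other libraries at 8 h, and code L overlapped vehicle. These shares are descriptions of each library with no test.

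In the fit of all 24 libraries, 5 to 8 collagens were called higher at 8 h with each treatment, Col5a3 and Col27a1 among them in all 3. By edgeR's quasi-likelihood test at an adjusted p of 0.05, both agents gave 5 higher and 2 lower of the 30 tested collagens against vehicle, where 9.54% of all 16424 tested genes were higher and 7.25% lower. Code L gave 8 higher and 1 lower, beside 7.89% and 8.32% of all genes. Code D gave 6 higher and 0 lower, beside 6.62% and 5.38% of all genes. The median log2 difference of the 30 collagens was 0.14 with both agents, 0.50 in code L and 0.39 in code D, where the median of all tested genes was 0.03, 0.00 and 0.00. These comparisons share the 3 vehicle libraries, so their values stand side by side and are not independent. With only the compared groups fitted, the totals of 7, 9 and 6 called collagens became 2 with both agents, 5 in code L and 1 in code D. Without replicate 2 of 8 h vehicle and of 8 h both agents, the counts were 4 higher and 3 lower with both agents, 6 and 1 in code L, and 4 and 1 in code D. The total of 7 with both agents was 4 without both-agents replicate 3, the 9 in code L were 16 without vehicle replicate 3, and the 6 in code D were 14 without vehicle replicate 3 and 3 without code D replicate 2.

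**Figure D3:**
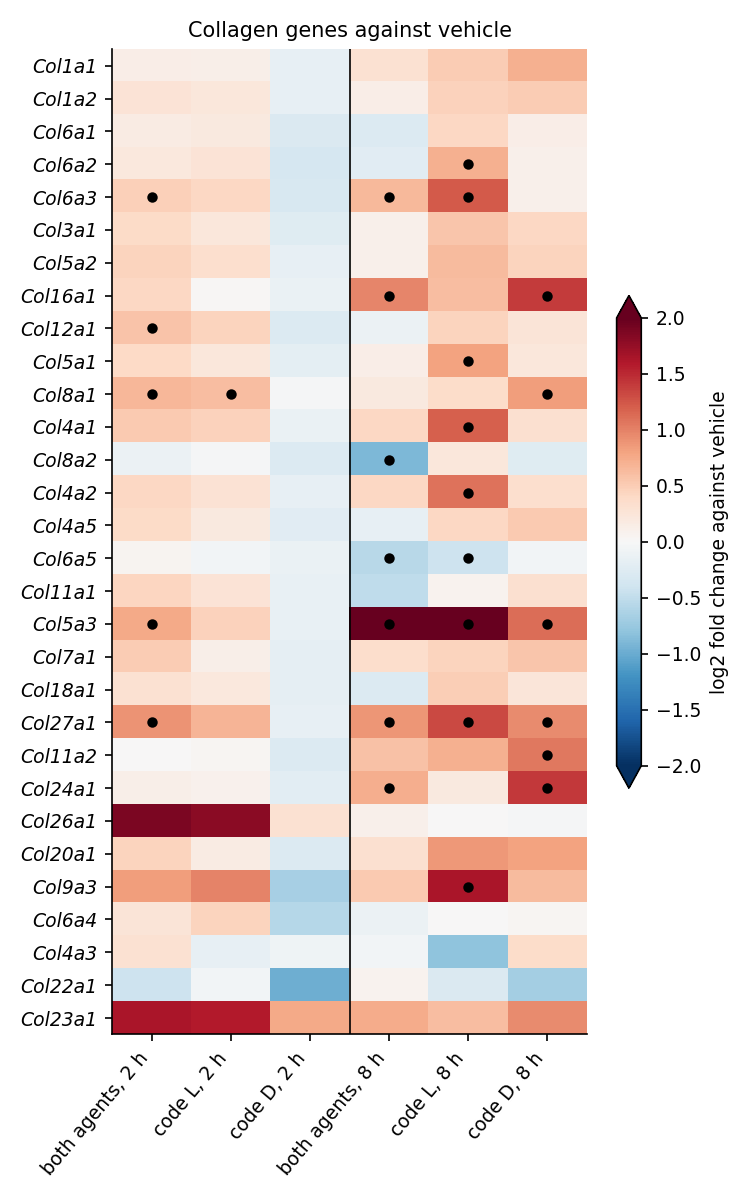
Log2 fold change against vehicle (colour, red higher in the treated group, clipped at 2) of the 30 tested collagens, ordered by mean TPM, for each treatment and time; black dots mark an adjusted p under 0.05. Col5a3 carries a dot in all 3 columns at 8 h, with log2 values of 2.13, 2.19 and 1.11, and the code D column at 2 h carries none.

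The bases upstream of a gene's start are shown for 4 collagens, Col5a3, Col24a1, Col6a3 and Col6a5, because each had a change against vehicle at 8 h that was called in every alternative run for at least 1 treatment. The windows are the 250 bases before the RefSeq start (GRCm38.p6), read 5′ to 3′ on the gene's strand, at chr9:20815068-20815317 (minus strand), chr3:145292222-145292471 (plus strand), chr1:90843972-90844221 (minus strand) and chr9:105960644-105960893 (minus strand), all outside annotated exons. Capitals mark matches, on either strand, to CCAAT or to the GC box GGGCGG.
Col5a3: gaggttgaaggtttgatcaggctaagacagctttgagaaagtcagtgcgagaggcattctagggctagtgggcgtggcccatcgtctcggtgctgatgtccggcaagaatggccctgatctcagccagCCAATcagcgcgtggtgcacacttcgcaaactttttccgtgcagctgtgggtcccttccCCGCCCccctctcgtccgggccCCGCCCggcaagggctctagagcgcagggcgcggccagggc
Col24a1: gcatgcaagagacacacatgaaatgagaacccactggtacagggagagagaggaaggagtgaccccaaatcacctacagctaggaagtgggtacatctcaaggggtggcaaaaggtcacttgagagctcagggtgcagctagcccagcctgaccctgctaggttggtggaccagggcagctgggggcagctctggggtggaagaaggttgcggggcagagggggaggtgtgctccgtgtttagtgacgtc
Col6a3: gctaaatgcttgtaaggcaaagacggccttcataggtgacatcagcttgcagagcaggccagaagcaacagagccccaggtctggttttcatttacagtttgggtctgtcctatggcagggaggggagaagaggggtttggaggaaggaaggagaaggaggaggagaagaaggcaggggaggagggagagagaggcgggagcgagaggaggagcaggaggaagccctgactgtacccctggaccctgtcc
Col6a5: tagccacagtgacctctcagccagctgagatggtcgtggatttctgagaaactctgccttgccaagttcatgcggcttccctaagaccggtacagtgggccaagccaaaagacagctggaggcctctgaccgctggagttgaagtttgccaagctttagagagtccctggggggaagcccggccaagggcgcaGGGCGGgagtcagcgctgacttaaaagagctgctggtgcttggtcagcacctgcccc
Both strands of each window were searched for the TATA box in the form TATAAA, for the CCAAT box, for the GC box GGGCGG, for the AP-1 motif TGANTCA, for the EGR motif GCGNGGGCG, which can overlap a GC box, and for the CArG box. Col5a3 held 1 CCAAT and 2 GC boxes, Col6a5 held 1 GC box, and Col24a1 and Col6a3 held none of the 6. Of all 32851 windows, 33.8% held CCAAT, 32.7% a GC box, 12.4% TATAAA, 6.75% the AP-1 motif, 4.7% the EGR motif and 1.47% a CArG box. Among the 35 collagens with a window, 13 held CCAAT, 21 a GC box and 5 TATAAA, and 1 each held the AP-1 motif (Col6a1), the EGR motif (Col8a1) and a CArG box (Col6a4). A match is a run of letters and not a shown binding site.

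Among fibrillar genes, Col5a3 rose in all 3 treatments. It encodes the alpha 3 chain of type V collagen. At 8 h it had 67.7, 45.4 and 75.9 CPM with both agents, 67.1, 61.6 and 67.7 CPM in code L, 27.0, 35.4 and 30.2 CPM in code D, and 16.1, 7.51 and 19.4 CPM with vehicle. Each treated group lay wholly above vehicle, both agents and code L overlapped each other, and code D sat between them and vehicle. Log2 fold changes were 2.13 ± 0.25 (SE) with both agents (adjusted p = 1.45e-06), 2.19 ± 0.25 in code L (adjusted p = 3.08e-06) and 1.11 ± 0.24 in code D (adjusted p = 0.00366). All 3 stayed called when any single library was left out, and without the libraries that stood apart they were 2.01, 1.89 and 0.78. The code D call was lost when the compared groups were fitted alone (adjusted p = 0.151).

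Col24a1, a fibrillar chain of bone and cornea present at low level, rose in code D. It had 2.01, 2.06 and 2.79 CPM with both agents at 8 h, 1.37, 1.58 and 1.78 CPM in code L, 3.37, 4.50 and 3.27 CPM in code D and 1.57, 1.15 and 1.43 CPM with vehicle. Code D was above every other library at 8 h, both agents were above vehicle, and code L overlapped vehicle. Against vehicle the log2 fold change was 1.42 ± 0.20 in code D (adjusted p = 3.03e-05) and 0.73 ± 0.20 with both agents (adjusted p = 0.0152). The second was lost without vehicle replicate 2 (adjusted p = 0.0766) or both-agents replicate 3 (adjusted p = 0.107), and without the pair that stood apart (adjusted p = 0.0828). It was also lost with no filter (adjusted p = 0.102), with protein-coding transcripts only (adjusted p = 0.0516) and with the compared groups alone (adjusted p = 0.125). On the TPM scale, which depends on the transcript to which reads were assigned, code D ran from 0.547 to 2.40 and vehicle from 0.242 to 0.257.

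Col27a1, a fibrillar chain of the cartilage growth plate, had 4.61, 3.84 and 8.06 CPM with both agents at 8 h, 6.35, 7.97 and 8.10 CPM in code L, 4.87, 7.02 and 5.40 CPM in code D and 3.61, 1.74 and 3.63 CPM with vehicle. Every treated library was above every vehicle library. Its log2 fold change was 0.88 ± 0.27 with both agents (adjusted p = 0.0286), 1.32 ± 0.27 in code L (adjusted p = 0.00189) and 0.94 ± 0.27 in code D (adjusted p = 0.0259). With both agents the call was lost without vehicle replicate 2 (adjusted p = 0.124) or both-agents replicate 3 (adjusted p = 0.257), and in code D without vehicle replicate 2 (adjusted p = 0.169), code D replicate 2 (adjusted p = 0.151) or code D replicate 3 (adjusted p = 0.0502), and without the pair that stood apart (adjusted p = 0.0973). With protein-coding transcripts only, none of its 8 h calls against vehicle was kept (adjusted p = 0.28, 0.0783 and 0.0855 for both agents, code L and code D), and the compared groups alone lost those with both agents (adjusted p = 0.274) and in code D (adjusted p = 0.163).

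Col5a1, the chain found in nearly all type V trimers, rose in code L, with 248, 258 and 276 CPM there, 162, 115 and 213 CPM with both agents, 152, 204 and 162 CPM in code D and 158, 77.3 and 210.0 CPM with vehicle. Code L libraries were above all the others at 8 h, and the other groups overlapped. The log2 fold change of 0.81 ± 0.25 (adjusted p = 0.0282) was lost without vehicle replicate 1 or 2 or any code L library (adjusted p = 0.0522 to 0.142) or with the compared groups alone (adjusted p = 0.188), and was 0.51 (adjusted p = 0.0612) without the libraries that stood apart. Col11a2, a type XI chain, rose in code D, at 2.17, 4.25 and 2.36 CPM against 1.63, 0.90 and 1.68 CPM with vehicle. These groups did not overlap, but the log2 fold change of 1.06 ± 0.34 (adjusted p = 0.0471) was lost without vehicle replicate 1 or 2 or code D replicate 2 or 3 (adjusted p = 0.0567 to 0.326), and with the compared groups alone (adjusted p = 0.175). The call was also lost without the pair that stood apart.

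The most abundant fibrillar genes were not called against vehicle in the main edgeR fit of 24 libraries, with group means only and the low-count filter. Col1a1 had 4116, 2459 and 5048 CPM with both agents at 8 h, 4538, 4591 and 4305 CPM in code L, 4465, 5945 and 5021 CPM in code D and 3750.0, 1650.4 and 4054 CPM with vehicle. Code L and code D libraries all lay above vehicle and both agents overlapped it. Its log2 fold changes were 0.30 ± 0.25 with both agents (adjusted p = 0.5), 0.51 ± 0.25 in code L (adjusted p = 0.174) and 0.71 ± 0.25 in code D (adjusted p = 0.0669). Col1a2 had 1829, 1195 and 2018 CPM with both agents, 2040, 2114 and 2125 CPM in code L, 1834, 2625 and 2061 CPM in code D and 1673, 852 and 2037 CPM with vehicle, with log2 fold changes of 0.14, 0.46 and 0.51 and an SE of 0.22 each. Only code L cleared all vehicle libraries. Col3a1, of extensible tissues, had 201, 139.6 and 223 CPM with both agents, 242, 266 and 271 CPM in code L, 195, 281 and 222 CPM in code D and 185, 99.2 and 243 CPM with vehicle, with log2 fold changes of 0.10, 0.56 and 0.41 and an SE of 0.23. Col5a2, the second type V chain, had 236, 170.5 and 275 CPM with both agents, 318, 310.2 and 355 CPM in code L, 237, 357 and 271 CPM in code D and 224, 120.3 and 290.5 CPM with vehicle. All 3 treated groups overlapped vehicle for Col3a1, and for Col5a2 those with both agents and code D did. The Col5a2 log2 fold changes were 0.10, 0.63 and 0.45 with an SE of 0.22, and its lowest adjusted p was 0.0561, in code L. Without vehicle replicate 3, Col1a1, Col1a2, Col3a1 and Col5a2 were all called in code D, and all of them but Col1a1 in code L. With all 24 libraries and no filter on low counts, each of these genes was called at 8 h in code L and in code D. That run also called Col1a1 with both agents. At 8 h DESeq2 called Col1a1 in code D, and Col3a1 and Col5a2 in code L.

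**Figure D4:**
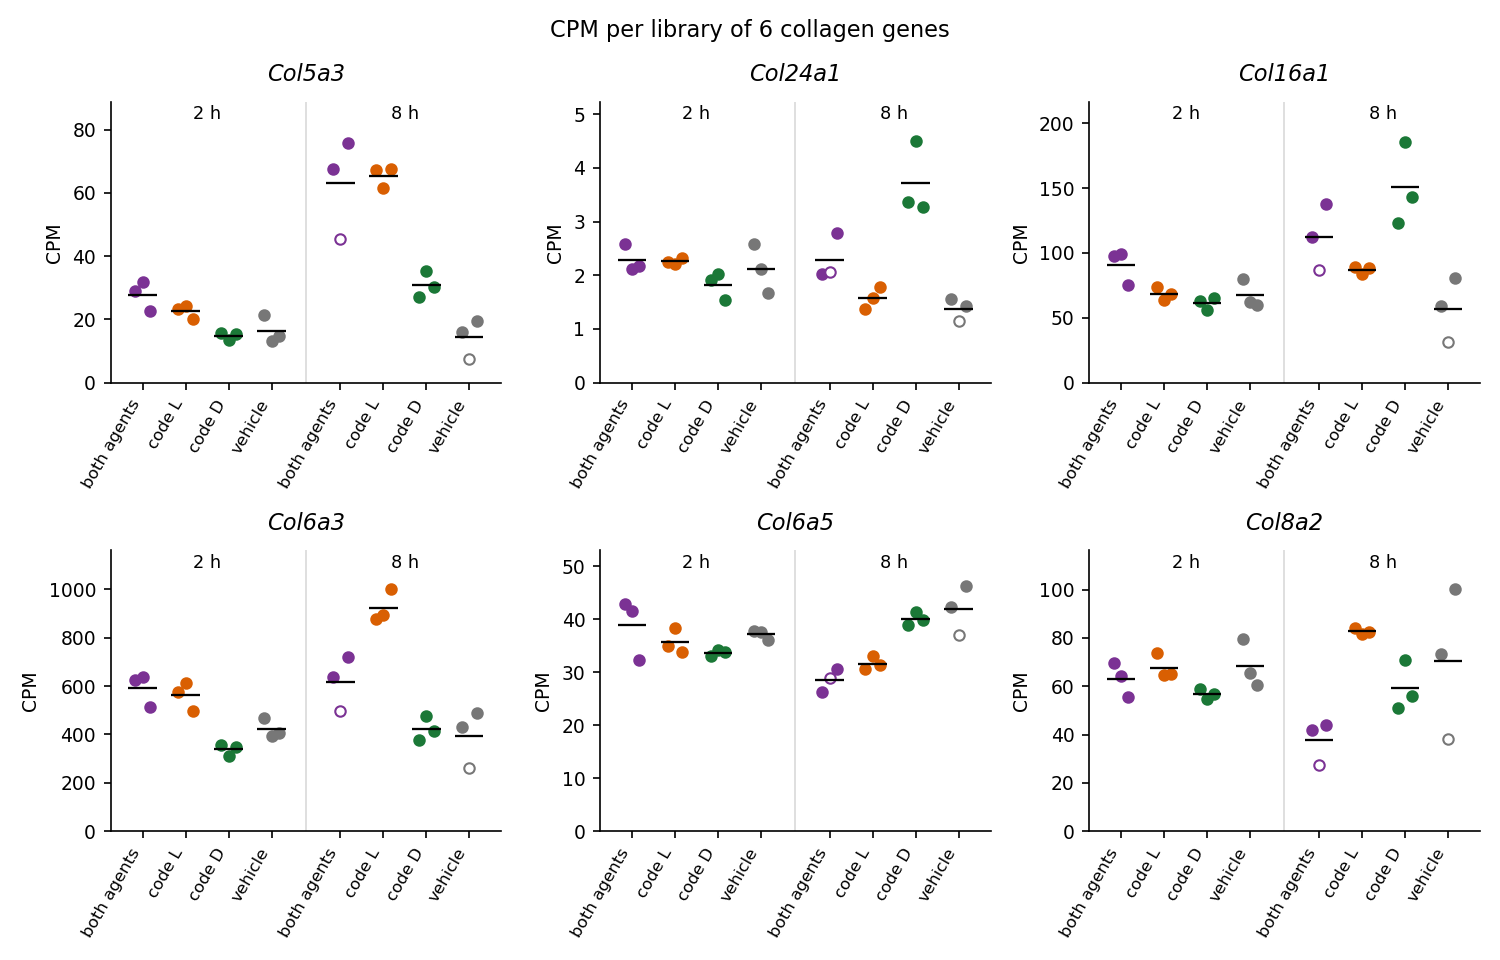
CPM (linear axes from 0) of 6 collagen genes in each library by group and time; points are libraries, bars are means of 3, and open points are replicate 2 of 8 h both agents and of 8 h vehicle. Col5a3 is high with both agents and in code L at 8 h, with means of 63.0 and 65.5 CPM against 14.3 CPM with vehicle, while Col24a1 and Col16a1 peak in code D and Col6a5 is low with both agents and in code L.

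Among FACIT genes, Col16a1, which binds at fibril surfaces, rose with both agents and in code D. At 8 h it had 112, 87.0 and 138 CPM with both agents, 89.1, 83.8 and 88.3 CPM in code L, 123, 186 and 143 CPM in code D and 59.1, 31.7 and 80.5 CPM with vehicle. All treated libraries exceeded vehicle, and code D overlapped both agents. Its log2 fold change was 0.98 ± 0.23 with both agents (adjusted p = 0.00353) and 1.40 ± 0.23 in code D (adjusted p = 0.000162), and both calls were kept when any 1 library was left out. Fitting the compared groups alone lost both (adjusted p = 0.178 and 0.0958). The transcript that took the largest part of its estimated counts, 42.8%, is annotated as subject to nonsense-mediated decay. With protein-coding transcripts only the values were 1.09 and 1.46. Col9a3, a cartilage FACIT chain at the edge of detection, had 0.685, 0.700 and 0.466 CPM in code L and 0.148, 0.248 and 0.196 CPM with vehicle. These groups did not overlap, yet its log2 fold change of 1.63 ± 0.53 (adjusted p = 0.0385) was lost without any 1 of the 6 libraries (adjusted p = 0.0545 to 0.128), with no filter (adjusted p = 0.0884) and with protein-coding transcripts only (adjusted p = 0.161). Leaving out the pair that stood apart lost it too.

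Type VI collagen split by chain. Col6a3, the largest chain of the classical heterotrimer, rose with both agents and in code L. At 8 h it had 636, 496 and 722 CPM with both agents, 877, 893 and 1000.2 CPM in code L, 377, 478 and 415 CPM in code D and 432, 259.9 and 490.0 CPM with vehicle. Both agents and code L were above vehicle without overlap, and code D overlapped vehicle. The log2 fold change was 0.65 ± 0.17 with both agents (adjusted p = 0.00867) and 1.23 ± 0.17 in code L (adjusted p = 3.64e-05). With both agents the call was lost without both-agents replicate 3 (adjusted p = 0.0568) and with the compared groups fitted alone (adjusted p = 0.225). In code L it held without any single library, at 1.01 to 1.42.

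Col6a1, the first chain, had 567, 402 and 624 CPM with both agents at 8 h, 833, 856 and 883 CPM in code L, 628, 834 and 654 CPM in code D and 715, 388 and 816 CPM with vehicle. Code L alone cleared vehicle, yet no treatment was called, with log2 values of -0.27 ± 0.20 with both agents, 0.42 ± 0.20 in code L and 0.14 ± 0.20 in code D. Col6a2, its partner, was higher in code L by 0.71 ± 0.21 (adjusted p = 0.0281), with 447, 469 and 479 CPM in code L and 328, 177 and 349 CPM with vehicle. These groups did not overlap, and the call was lost without vehicle replicate 2 (adjusted p = 0.168) or any code L library (adjusted p = 0.064 to 0.0803), and with the compared groups alone (adjusted p = 0.137).

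Col6a5, a chain related to Col6a3 that can take its place in type VI trimers, fell. At 8 h it had 26.2, 28.9 and 30.6 CPM with both agents, 30.5, 33 and 31.4 CPM in code L, 39.0, 41.4 and 39.8 CPM in code D and 42.3, 37.1 and 46.4 CPM with vehicle. In CPM both agents and code L lay below vehicle without overlap, and code D overlapped it. On the TPM scale code L, at 5.15, 9.07 and 6.8, overlapped vehicle, at 9.7, 7.54 and 12.8. Both agents stayed below vehicle there, at 4.3 to 4.93 TPM. The log2 fold change was -0.55 ± 0.09 with both agents (adjusted p = 0.000173) and -0.41 ± 0.09 in code L (adjusted p = 0.00475). Both calls held in every alternative run, and the values were -0.64 and -0.48 without the libraries that stood apart.

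Among network genes, both chains of the common type IV trimer rose in code L. Col4a1 had 118, 119 and 131 CPM in code L at 8 h and 58.0, 27.0 and 76.4 CPM with vehicle, with 77.4, 51.4 and 87.1 CPM with both agents and 56.2, 80.2 and 65.8 CPM in code D. Code L stood above every other library. The log2 fold change in code L was 1.19 ± 0.24 for Col4a1 (adjusted p = 0.00162) and 1.09 ± 0.23 for Col4a2 (adjusted p = 0.00271). Without the libraries that stood apart they were 0.88 and 0.79, still called, and a fit of the compared groups alone lost both (adjusted p = 0.0949 and 0.104). These genes lie head to head and their annotations overlap by 22 bases on opposite strands.

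The type VIII chains, which form hexagonal lattices, went apart. Col8a2 had 41.8, 27.5 and 43.9 CPM with both agents at 8 h, 84.2, 81.6 and 82.3 CPM in code L, 50.8, 70.8 and 56.0 CPM in code D and 73.2, 38.0 and 100.2 CPM with vehicle. Both agents overlapped vehicle only through vehicle replicate 2. With both agents the log2 fold change was -0.90 ± 0.22 (adjusted p = 0.0064). The call was lost without vehicle replicate 3, at -0.56 (adjusted p = 0.081), and with the compared groups fitted alone (adjusted p = 0.223). Without the libraries that stood apart the value was -1.02 (adjusted p = 4.46e-05). Those libraries were picked after their low collagen values were seen, so that p is no further support. Col8a1 rose in code D, with 82.0, 119.7 and 93.3 CPM against 61.0, 35.1 and 69.2 CPM with vehicle and no overlap. Its log2 fold change of 0.84 ± 0.20 (adjusted p = 0.00903) was lost without vehicle replicate 2 (adjusted p = 0.0778) or code D replicate 2 (adjusted p = 0.084), and with the compared groups alone (adjusted p = 0.173).

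Ratios between chains within a library set aside what all collagens of a library share. The Col6a3 to Col6a1 ratio of TPM was 0.537, 0.607 and 0.568 with both agents at 8 h, 0.531, 0.515 and 0.573 in code L, 0.310, 0.281 and 0.327 in code D and 0.298, 0.348 and 0.312 with vehicle. Both agents and code L stood together above code D and vehicle, and the libraries that stood apart lay with their groups. The Col5a3 to Col5a1 ratio was 0.578, 0.550 and 0.494 with both agents, 0.375, 0.332 and 0.340 in code L, 0.247, 0.241 and 0.259 in code D and 0.142, 0.135 and 0.128 with vehicle. The 4 groups did not overlap in that ratio.

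The Col8a1 to Col8a2 ratio had another order of groups. At 8 h it was 1.28, 1.36 and 1.42 with both agents, 0.649, 0.736 and 0.712 in code L, 1.32, 1.40 and 1.37 in code D and 0.695, 0.750 and 0.549 with vehicle. Both agents and code D overlapped each other and stood above code L and vehicle, which overlapped. At 2 h it was instead 1.45, 1.43 and 1.38 with both agents, 1.26, 1.30 and 1.20 in code L, 1.01, 0.827 and 1.00 in code D and 0.851, 0.744 and 0.781 with vehicle, so that code L was then above code D. The Col16a1 to Col12a1 ratio at 8 h was 1.92, 1.58 and 1.62 with both agents, 0.935, 0.811 and 1.11 in code L, 1.89, 1.96 and 1.97 in code D and 0.820, 0.697 and 0.759 with vehicle. Both agents and code D were again above the rest. The ratios were chosen after these genes' values were seen and carry no test.

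**Figure D5:**
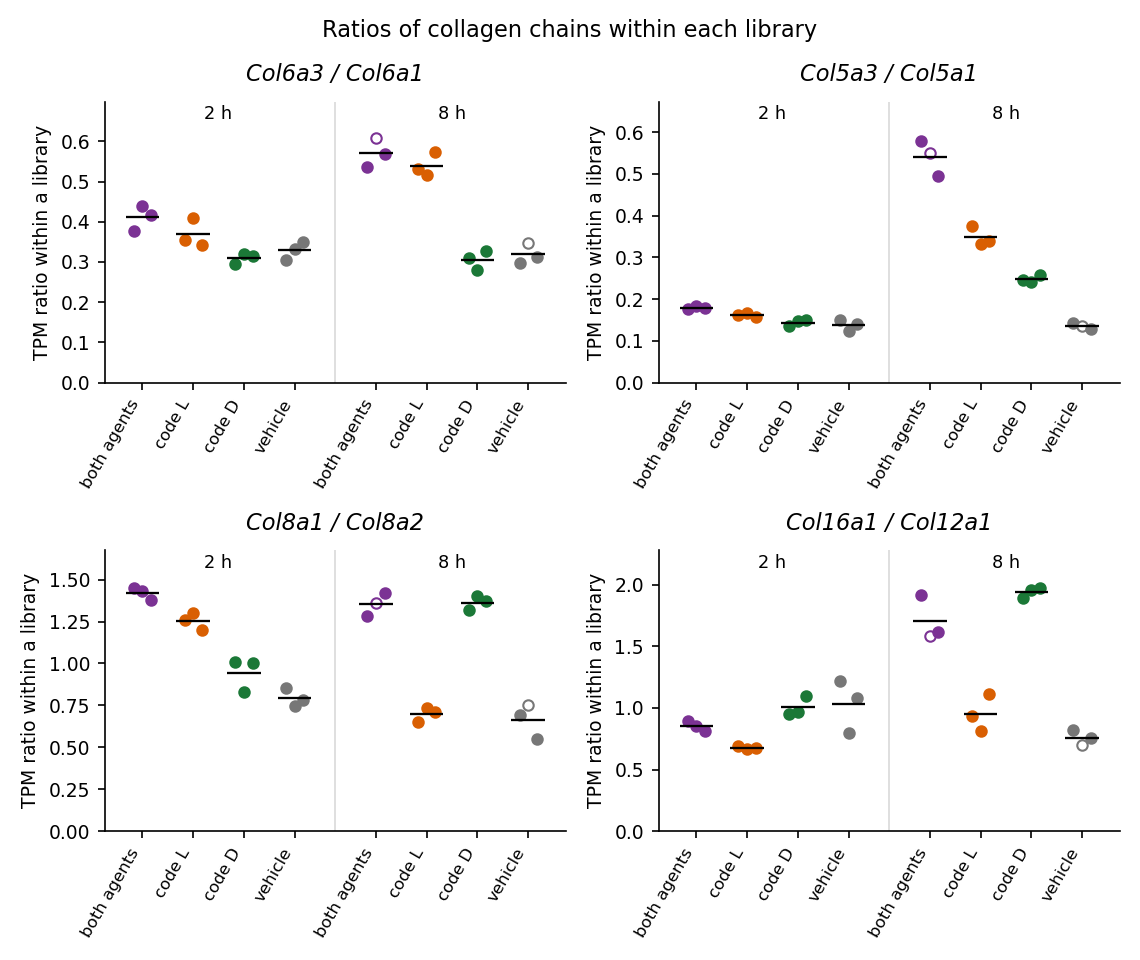
Ratio of TPM between pairs of collagen chains within each library (linear axes from 0) by group and time; points are libraries, bars are means of 3, and open points are replicate 2 of 8 h both agents and of 8 h vehicle. At 8 h, Col6a3 over Col6a1 is high with both agents and in code L, Col8a1 over Col8a2 and Col16a1 over Col12a1 are high with both agents and in code D, and Col5a3 over Col5a1 separates all 4 groups.

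At 2 h, both agents gave 5 higher and 0 lower collagens against vehicle, where 9.88% of all tested genes were higher and 10% lower, and code L gave 1 higher and 0 lower, beside 7.06% and 6.85% of all genes. Code D gave 0 calls by edgeR, where 0.597% of all genes were higher and 0.189% lower; 0 collagens had an unadjusted p under 0.05, and DESeq2 also called 0. With a within-group component as covariate, 7 collagens were lower there and 0 higher, and the shares above are not those of that fit. The component was computed from the deviations of these same libraries from their group means, so those 7 are no separate support. In code D, 6 of the 30 collagens lay wholly below vehicle, where 10.5% of all genes did, Col6a3 among them with 358, 309.6 and 349 CPM against 466, 395.5 and 408 CPM with vehicle. The median log2 difference of the 30 collagens was 0.41 with both agents, 0.23 in code L and -0.18 in code D. In code D, 28 of the 30 estimates were negative.

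With both agents at 2 h the genes called were Col5a3, Col6a3, Col27a1, Col8a1 and Col12a1, the last a FACIT chain of tendon and bone surfaces. Col5a3 had 28.9, 31.7 and 22.7 CPM with both agents and 21.4, 13.2 and 14.6 CPM with vehicle, a log2 difference of 0.76 ± 0.24 (adjusted p = 0.0292). Col8a1 had 123, 112 and 94.5 CPM with both agents, 115, 111 and 91.6 CPM in code L, 73.9, 58.4 and 69.9 CPM in code D and 80.3, 61.5 and 64.4 CPM with vehicle. Its differences were 0.67 ± 0.20 with both agents (adjusted p = 0.022) and 0.62 ± 0.20 in code L (adjusted p = 0.0451), the only call there, and neither group overlapped vehicle. Col12a1 differed by 0.57 ± 0.19 (adjusted p = 0.0398), Col27a1 by 0.90 ± 0.27 (adjusted p = 0.0216) and Col6a3 by 0.48 ± 0.17 (adjusted p = 0.0475) with both agents. Leaving out single libraries ended these calls: 0 of the 5 were kept without vehicle replicate 3, both-agents replicate 1 or both-agents replicate 2, 1 without vehicle replicate 2, and 4 without vehicle replicate 1. The Col8a1 call in code L was lost without vehicle replicate 2 or 3 or code L replicate 1 or 2, and with protein-coding transcripts only (adjusted p = 0.0553), as was the Col27a1 call with both agents (adjusted p = 0.168).

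Both agents were then set against each single treatment. At 2 h, 0 collagens differed between both agents and code L by edgeR, where 0.609% of all genes were higher and 0.158% lower; 0 had an unadjusted p under 0.05, and DESeq2 called 0. Against code D, 5 were higher and 0 lower, beside 9.22% and 9.48% of all genes, and they were the 5 that were called against vehicle. Their log2 differences were 0.91 ± 0.24 for Col5a3, 0.86 ± 0.19 for Col12a1, 1.07 ± 0.28 for Col27a1, 0.80 ± 0.17 for Col6a3 and 0.70 ± 0.20 for Col8a1, with adjusted p from 0.00172 to 0.0185. All 30 estimates were positive, with a median of 0.59. Without code D replicate 2 or both-agents replicate 2, 3 of the 5 calls remained.

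At 8 h both agents against code L gave 0 higher and 5 lower collagens, where 5.74% of all genes were higher and 3.43% lower. The log2 difference of Col8a2 was -1.13 ± 0.23 (adjusted p = 0.00182), and this call held without any single library. The type VI chains were lower as well, with log2 differences of -0.69 ± 0.20 for Col6a1 (adjusted p = 0.0323), -0.93 ± 0.22 for Col6a2 (adjusted p = 0.00737) and -0.58 ± 0.17 for Col6a3 (adjusted p = 0.0325). Col4a1 differed by -0.77 ± 0.24 (adjusted p = 0.0448). Without both-agents replicate 2 only the Col8a2 call was left, and without any code L library or both-agents replicate 1 the count was 2, while without both-agents replicate 3 it was 10; with the pair that stood apart left out together it was 5.

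Against code D at 8 h, both agents gave 2 higher and 6 lower collagens, beside 14% and 8.91% of all genes. Col5a3 was higher by 1.03 ± 0.24 (adjusted p = 0.00342) and Col6a3 by 0.55 ± 0.17 (adjusted p = 0.0228). Lower were Col6a5 at -0.49 ± 0.09 (adjusted p = 0.000744), Col11a1, a type XI chain, at -0.83 ± 0.21 (adjusted p = 0.00779), Col24a1 at -0.70 ± 0.19 (adjusted p = 0.0128), Col4a5, a type IV chain, at -0.69 ± 0.23 (adjusted p = 0.036), Col8a1 at -0.64 ± 0.20 (adjusted p = 0.0283) and Col8a2 at -0.65 ± 0.22 (adjusted p = 0.0406). The Col5a3 and Col6a5 calls held in every alternative. The count was 3 without code D replicate 2, both-agents replicate 1 or both-agents replicate 2, 4 without code D replicate 3, and 5 without the pair that stood apart.

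The interaction asks whether the effect of both agents departs from the sum of the single effects on the log2 scale. At 2 h it called 0 collagens by edgeR, where 0.0244% of all genes were higher and 0.0122% lower; 0 had an unadjusted p under 0.05 and DESeq2 called 0. At 8 h it called 0 higher and 7 lower, beside 4.06% and 3.62% of all genes: Col5a3, Col6a2, Col4a5, Col4a1, Col16a1, Col27a1 and Col8a1, with log2 values from -1.38 to -0.99 and adjusted p from 0.0411 to 0.0496. For Col5a3 the value was -1.16 ± 0.34 (adjusted p = 0.0454), where both agents gave 2.13 and the single effects 2.19 and 1.11. None of the 7 was called when the libraries that stood apart were left out, or without vehicle replicate 2, any code L library, code D replicate 2 or 3, or both-agents replicate 1 or 2, and the count was 4 without vehicle replicate 1, 21 without vehicle replicate 3, 17 without code D replicate 1 and 22 without both-agents replicate 3.

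Time was compared next. In vehicle at 8 h against 2 h, 0 collagens were higher and 1 lower, beside 5.88% and 8.69% of all genes. Col24a1 had 1.57, 1.15 and 1.43 CPM at 8 h and 2.59, 2.11 and 1.66 CPM at 2 h, a log2 difference of -0.62 ± 0.20 (adjusted p = 0.046). These groups did not overlap, but the call was lost without vehicle replicate 1 or 2 at either time or vehicle replicate 3 at 8 h.

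Treatment effects that differed between 8 h and 2 h were few. For both agents 1 collagen had a higher effect at 8 h and 1 a lower one, beside 5.57% and 4.11% of all genes. They were Col5a3, by 1.38 ± 0.34 (adjusted p = 0.0112), and Col6a5, by -0.62 ± 0.13 (adjusted p = 0.00376). For code L, 1 was higher and 0 lower, beside 1.33% and 2.84% of all genes, and that was Col5a3, by 1.73 ± 0.34 (adjusted p = 0.00384). For code D, 3 were higher and 0 lower, beside 3.76% and 3% of all genes: Col24a1 by 1.64 ± 0.28 (adjusted p = 0.00119), Col16a1 by 1.54 ± 0.32 (adjusted p = 0.00584) and Col5a3 by 1.25 ± 0.34 (adjusted p = 0.0336). The last was lost without 2 h vehicle replicate 1, 2 h code D replicate 2 or 3, 8 h vehicle replicate 2 or 8 h code D replicate 2 or 3 (adjusted p = 0.0577 to 0.111), and the code D count was 11 without 8 h vehicle replicate 3. For both agents the count was 5 without 8 h vehicle replicate 2 and 4 without 8 h both-agents replicate 3, and for code L it was 3 without 8 h vehicle replicate 3.

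Of the 30 tested collagens, 12 were called in no comparison of the main edgeR fit, with group means only and the low-count filter. They were Col1a1, Col1a2, Col3a1, Col5a2, Col7a1, Col18a1, Col20a1, Col22a1, Col23a1, Col26a1, Col4a3 and Col6a4. Of these, 7 were called in at least 1 comparison under some alternative setting: Col1a1, Col1a2, Col3a1, Col5a2, Col7a1, Col18a1 and Col20a1. In the main fit, the log2 differences of the 12 from vehicle ran from -0.97 to 1.88. The highest belonged to Col26a1, an emilin-related gene at 0.668, 0.614 and 0.346 CPM with both agents at 2 h against 0, 0.319 and 0.117 CPM with vehicle, with an adjusted p of 0.141. Col7a1, the anchoring fibril chain, had log2 values at 8 h of 0.35 ± 0.25 with both agents, 0.44 ± 0.25 in code L and 0.55 ± 0.25 in code D, and each of these groups overlapped vehicle.

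Genes for the processing of collagen were counted by list, and each list's counts stand beside the shares of all tested genes at 8 h, which were 9.54% higher and 7.25% lower with both agents, 7.89% and 8.32% in code L, and 6.62% and 5.38% in code D. With lists of 10 to 26 genes, no count is read as particular to a list. Among 12 tested genes of procollagen cleavage and cross-linking, 5 were higher and 2 lower with both agents at 8 h, 3 and 2 in code L, and 5 and 1 in code D, with list medians of 0.36, 0.33 and 0.34. Loxl2, a lysyl oxidase that cross-links network collagens, differed by 3.17 ± 0.23 with both agents, 0.93 ± 0.24 in code L and 1.92 ± 0.23 in code D. Its level was low, with means at 8 h of 0.83, 0.188 and 0.395 TPM in that order and 0.0952 TPM with vehicle. Lox, the lysyl oxidase of fibrils, differed by 1.37 ± 0.12, 1.47 ± 0.12 and 0.51 ± 0.12 in the same order of groups. Adamts14, a procollagen N-proteinase, was higher by 2.10 ± 0.26, 1.53 ± 0.26 and 1.31 ± 0.26, and Loxl3 was lower in all of them.

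Of 26 tested enzymes and chaperones of collagen folding and export, 3 were higher and 1 lower with both agents at 8 h, 3 and 2 in code L, and 1 and 2 in code D. At 2 h, 0 were called in any treatment. Of all tested genes at 2 h, 9.88% were higher and 10% lower with both agents. The shares were 7.06% and 6.85% in code L, and 0.597% and 0.189% in code D. P4ha3, a prolyl 4-hydroxylase subunit, differed by -0.60 ± 0.08 with both agents and -0.64 ± 0.08 in code D. Plod2, the lysyl hydroxylase of telopeptides, differed by 0.31 ± 0.07 with both agents, -0.27 ± 0.07 in code L and 0.73 ± 0.07 in code D. Creb3l1, a transcription factor that drives collagen secretion, was higher in code L by 1.13 ± 0.23.

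Of 10 tested collagen receptors and uptake genes, 3 were higher and 1 lower with both agents at 8 h, 1 and 2 in code L, and 5 and 0 in code D. Itga1, the collagen-binding alpha 1 integrin, differed by -0.23 ± 0.07 with both agents, -0.62 ± 0.07 in code L and 0.58 ± 0.07 in code D. Ddr2, a receptor tyrosine kinase for fibrillar collagen, differed by 0.40 ± 0.06 with both agents and 0.60 ± 0.06 in code D. Among 19 tested fibril-associated matrix genes, 4 were higher and 6 lower with both agents, 6 and 6 in code L, and 2 and 7 in code D. The small leucine-rich proteoglycans Aspn and Omd fell in all 3, Aspn with log2 values of -1.61 ± 0.09, -0.85 ± 0.09 and -1.04 ± 0.09, while Prelp, of the same family, differed by 0.96 ± 0.10 with both agents and 2.06 ± 0.11 in code D.

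Among 14 tested basement membrane partners of type IV collagen, 2 were higher and 0 lower with both agents at 8 h, 2 and 0 in code L, and 5 and 1 in code D. Of 13 tested transcription factors of collagen genes, 1 was higher and 3 lower with both agents at 8 h, 3 and 0 in code L, and 0 and 2 in code D. Dlx5, a homeobox factor of osteoblasts, differed by -2.32 ± 0.25 with both agents and -1.45 ± 0.24 in code D, and Sox9, the cartilage factor, by 1.04 ± 0.23 in code L. At 2 h, 1 gene of these 6 lists was called in code D, a fibril-associated one that was lower. Of all tested genes, 0.597% were higher and 0.189% lower there.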

How the data were processed

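RNA-seq was made from total RNA of Ocy454 cells. The authors deposited, per the file headers, a table per library with an estimated count and a TPM value for each transcript. For the quantifier, nothing is given in the sources used here; the submitters' processing notes name the build mm39. Estimated counts and TPM of each gene's transcripts were summed by Ensembl gene identifier, and the sums of counts were rounded to whole numbers. Names came from a GRCm38 annotation, and 135078 of 139145 transcripts matched, holding 99.45 to 99.6% of counts.

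Genes that passed edgeR's filter (minimum count 10) were tested with edgeR 4.0.16 (R 4.3.3), using its quasi-likelihood test on TMM-scaled counts, with 8 group means over 24 libraries, and Benjamini-Hochberg adjustment over 16424 genes at 0.05. CPM values use the TMM-scaled library sizes. DESeq2 1.42.0 was an alternative, beside other scaling, no filter, protein-coding transcripts, a replicate block, the compared groups alone, a within-group component as covariate and each library left out. The fits were tested on simulated data. Tables and figures used pandas 2.3.3 and matplotlib 3.10.9 in Python 3.11.15. Depth, 32.8 to 33.67 M estimated counts per library, limits precision for genes of a few counts.

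The collagens named with every library's value were the 8 of highest mean TPM and up to 12 past the threshold against vehicle by smallest p. Others are given by values or ranges, and of the partner lists at most 3 risers and 3 fallers per comparison are named. Members, lists and tests were chosen with earlier results of these data known. The chain ratios and the fit without 2 libraries were added after the data were seen. Groups follow the letters of the tables, since titles and tables disagree on the single treatments.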

Additional observations from a re-analysis of the deposited data

Results flagged for a closer look

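The interaction at 8 h, which asks whether the effect of both agents departs from the sum of the single effects on the log2 scale, was past the adjusted p of 0.05 by edgeR's quasi-likelihood test for 7 collagens. Its value was -1.38 ± 0.38 (SE) for Col27a1, -1.16 ± 0.34 for Col5a3, -1.10 ± 0.34 for Col4a1, -1.10 ± 0.33 for Col4a5, -1.03 ± 0.32 for Col16a1, -1.02 ± 0.30 for Col6a2 and -0.99 ± 0.29 for Col8a1. All 7 lie close to the threshold, with adjusted p from 0.0411 to 0.0496, and none was called without the 2 libraries that stood apart.

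Treatment effects that differed between 8 h and 2 h by the same test were those on Col5a3 in all 3 treatments, by 1.38 with both agents, 1.73 in code L and 1.25 in code D. The effect of both agents on Col6a5 differed by -0.62. In code D the effect on Col24a1 differed by 1.64 and that on Col16a1 by 1.54. The Col6a5 difference, the code L difference of Col5a3 and the Col24a1 difference were called in every alternative run.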

How the results depend on the processing

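Over 906 alternative values of 60 gene and comparison pairs that were called, 672 kept the call, 234 lost it and 0 changed sign. Counts of called collagens are given below for both agents, code L and code D against vehicle, both agents against code L and against code D, the interaction, vehicle over time, and the difference between 8 h and 2 h effects for both agents, code L and code D. In the main analysis they were 5, 1, 0, 0, 5 and 0 at 2 h, 7, 9, 6, 5, 8 and 7 at 8 h, 1 for vehicle over time and 2, 1 and 3 for the differences. Where a value moved, the cause was not tested, except that fewer libraries or other transcripts enter by construction. The shares of all genes called under each alternative setting are not given beside these counts, so no such count is read as particular to collagens. The within-group component was computed from these same libraries.

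Without a filter on low counts they were 15, 7, 0, 1, 19 and 0 at 2 h, 11, 19, 14, 15, 16 and 21 at 8 h, 1 for vehicle and 10, 7 and 20 for the differences. With a within-group component as covariate they were 17, 15, 7, 1, 21 and 1 at 2 h, 17, 23, 19, 19, 17 and 23 at 8 h, 12 for vehicle and 12, 16 and 21. With the compared groups fitted alone they were 10, 4, 0, 0, 20 and 0 at 2 h, 2, 5, 1, 1, 2 and 0 at 8 h, 0 for vehicle and 1, 1 and 1. With DESeq2, both agents against code D at 2 h gave 14, both agents against code L at 8 h 10, the interaction at 8 h 20, and the differences for code L and code D 2 and 5. With protein-coding transcripts only, code L against vehicle at 2 h gave 0. Without replicate 2 of 8 h vehicle and of 8 h both agents, both agents against code D at 8 h gave 5, the interaction 0, vehicle over time 0, and the differences for both agents and code L 5 and 2.

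Leaving out 1 library at a time gave 0 to 5, 0 to 1, 0 to 0, 0 to 0, 3 to 7 and 0 to 0 at 2 h, 4 to 9, 6 to 16, 3 to 14, 1 to 10, 3 to 8 and 0 to 22 at 8 h, 0 to 1 for vehicle over time, and 2 to 5, 1 to 3 and 2 to 11 for the differences. Summed collagen TPM then ran over 1666.3 to 1964.4 with both agents, 1683.1 to 1888.8 in code L, 1238.6 to 1371.8 in code D and 1442.4 to 1747.9 with vehicle at 2 h. At 8 h it ran over 1390.3 to 1936.2, 2183.9 to 2262.6, 2034.3 to 2533.5 and 1217.8 to 1928.7 in the same order. Without mitochondrially encoded genes the sum was 2223.0, 2214.7, 1615.9 and 1984.7 TPM at 2 h in that order, and 2787.9 in code L and 3011.1 in code D at 8 h.

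Replicate numbers are shared between groups, but same-numbered libraries did not deviate together, with correlations of -0.25 to 0.36 and a median of 0 over 84 pairs, so they were not taken as pairs. With the replicate number as a block the count for vehicle over time was 0, and the counts at 2 h were 4, 1, 0, 0, 6 and 0, at 8 h 7, 9, 5, 5, 8 and 10, and for the differences 3, 1 and 3. With the block, the calls of Col11a2 in code D against vehicle at 8 h (adjusted p = 0.0649), Col12a1 with both agents against vehicle at 2 h (adjusted p = 0.0503) and Col24a1 in vehicle over time (adjusted p = 0.063) were lost. Collagens of a few counts per library could not be tested at this depth.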
